A study of Xenopus laevis with 3 samples.

Results

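Anterior endoderm of Xenopus laevis tailbud embryos at stage 30 was compared with posterior endoderm of the same stage on spotted cDNA arrays. The comparison is 1 of the 3 deposited samples, the others being the same dissection at stages 39 and 46, and it was measured on 2 arrays, called A and B. On every array anterior cDNA carried Cy5 and posterior cDNA carried Cy3, and no array had the dyes exchanged, so region and dye cannot be told apart. The labels give no strain, genotype or treatment, and they do not say whether arrays A and B held separate dissections. Errors and p-values therefore measure the spread between hybridisations, which may be technical. That spread was estimated over all 6 arrays of the 3 stages. A standard error (SE) given with n = 2 belongs to a mean of 2 arrays, but its spread is not that of these 2 alone. The arrays held 21504 spots, of which 6126 carried an informative annotated name and 8187 had no database match. Of 2379 distinct names, 1982 could be tested, and a name was read through its brightest tested probe.

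The endoderm is the inner germ layer, which forms the lining of the gut and the organs that bud from it. In the frog tailbud it is a yolk-rich tube whose anterior part gives rise to the pharynx, lungs, stomach, liver and pancreas, and whose posterior part gives rise to the intestine and hindgut. Position along the tube is set by signals of the Wnt, FGF, BMP and retinoic acid families and read out by transcription factors of the Hox, caudal, GATA and forkhead families. In bulk tissue, fewer cells of a type and less RNA per cell cannot be told apart. The names are best database matches cut short in the file, often from another species, so a single name can stand for several genes.

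Raw spot intensity, in scanner units, had a median of 2988.5 units in anterior endoderm and 3037 units in posterior endoderm on array A. On array B the medians were 1480 units in anterior endoderm and 1954 units in posterior endoderm. Spots well above background, defined as over 2 background SDs, made up 59.5% in anterior and 62.3% in posterior endoderm on array A, and 39.1% and 43.4% on array B. Array A had 664 spots with over 10% saturated pixels and array B had 294, against 3 to 36 on the 4 arrays of the later stages. The units given for single genes below are raw and hold the local background, whereas the log2 ratios are background-corrected and normalised, so the quotient of the units differs from the ratio. The scanner gain was set for each slide, so intensities are compared only between the 2 dyes of an array. Of the defining endoderm markers, the brightest probe of endodermin was well above background in neither region. That of VegT, a maternal regulator of endoderm, was so in both. Their log2 ratios were 0.43 and 0.17 for endodermin and 0.15 and 0.27 for VegT on arrays A and B. The other VegT spot was not called, at -0.001 and 0.18. When both dyes had to be well above background on both arrays, endodermin was read through another probe. Of the 2 names tested then, 2 were higher, with a median of 0.39. The word match for these markers left out Xcer, the frog cerberus gene, and XGATA-6B. Xcer was lower, at -0.88 and -0.84, and XGATA-6B was higher, both described below.

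At an adjusted p under 0.05, 654 of the 1982 names were higher in anterior endoderm (33.0%) and 463 were lower (23.4%), together 1117 names or 56.4%. Over all 14103 tested probes, 4010 were higher (28.4%) and 3901 were lower (27.7%), together 56.1%. The differences were mostly small. The median called name differed 1.29-fold, while 12 names exceeded a 2-fold increase and 8 a 2-fold decrease. Over all probes 179 passed the test and exceeded 2-fold (1.27%). The median log2 ratio over all names was 0.06. Across the names the ratios of arrays A and B correlated with r = 0.848, a description across names that share both slides and both RNA labelings. The SD of the difference between the arrays was 0.21 on the log2 scale, and 82.1% of the names had the same sign on both arrays. No called name had opposite signs on the 2 arrays. A test against a minimum change of 1.2-fold left 321 names. Since 56.4% of all names passed the ordinary test, the counts below are read against 33.0% higher and 23.4% lower.

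**Figure D1:**
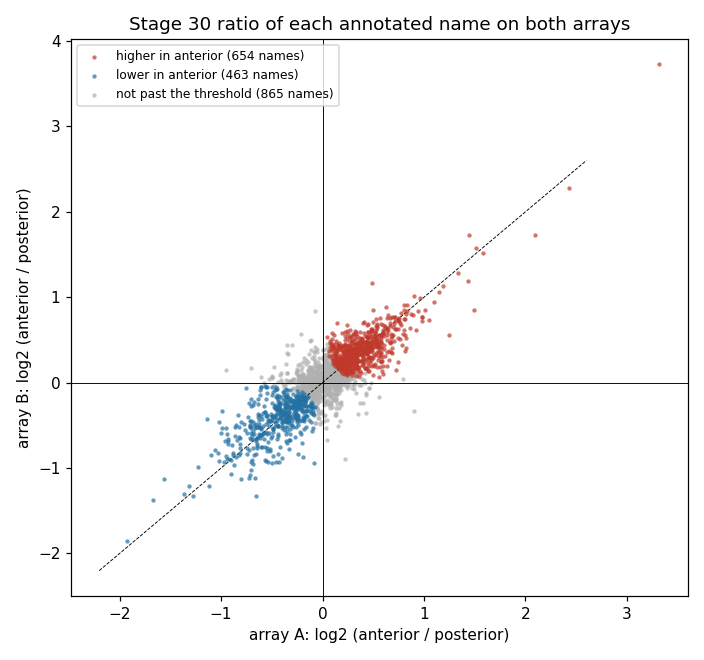
Log2 ratio of anterior over posterior endoderm on array A (x axis) and array B (y axis) for each of the 1982 tested names, coloured by the call, with the dashed line marking equal values. Called names lie along the diagonal and most of them lie within 1 log2 unit of 0.

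The 38 gene lists were described by their counts and medians, and nothing is called particular to a list from these. Medians ran between -0.67 for gluconeogenesis and glycogen and 0.27 for the neural list. Lists with a share of higher names above the background included proteasome and ubiquitin, with 17 of 32, cell cycle and DNA replication, with 14 of 28, histones and chromatin, with 10 of 20, and neural genes, with 12 of 21. Lists with a share of lower names above the background included gluconeogenesis and glycogen, with 4 of 5, translation factors and tRNA synthetases, with 8 of 15, and chaperones, with 8 of 18. The median over a name's probes called 872 names in all, in place of 1117. Higher names were then 11 of 32 for proteasome and ubiquitin, 8 of 28 for cell cycle, 5 of 20 for histones and 12 of 21 for neural genes. Lower names were then 4 of 5 for gluconeogenesis, 7 of 15 for translation factors and 8 of 18 for chaperones. Lists close to the background in both directions included transcription factors, with 16 of 61 higher and 15 lower, and kinases and small GTPases, with 18 of 61 higher and 18 lower. Counted over all probes in place of the brightest of each name, the balance turned in the secretory pathway, with 12 of 62 probes higher and 17 lower, in glycolysis, with 2 of 23 higher and 8 lower, in transcription factors, with 31 of 120 higher and 34 lower, and in oxidative phosphorylation, with 22 of 96 higher and 20 lower.

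**Figure D2:**
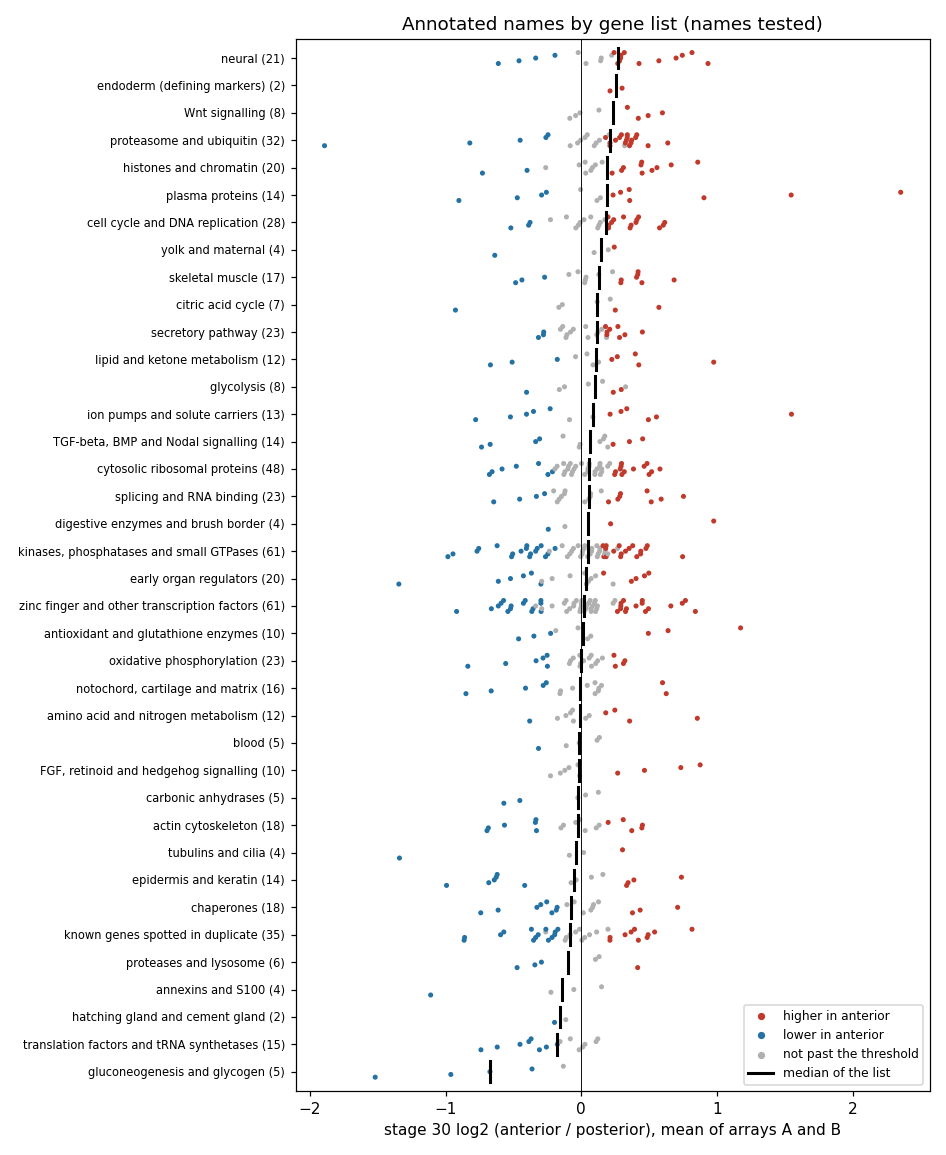
Stage 30 log2 ratio of anterior over posterior endoderm (x axis, mean of both arrays) for every tested name in each gene list, with the number tested in brackets; colours give the call and black bars the list median. Most medians lie close to 0, that of gluconeogenesis and glycogen at -0.67.

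Gluconeogenesis makes glucose from smaller molecules and is a known function of liver and kidney. Of its 5 tested names, 4 were lower in anterior endoderm, none was higher and glycogenin-2 was not called. Glucose-6-phosphatase (clone XL090j03), which releases free glucose in the last step, had 5917 and 2195 units in anterior endoderm, against 15674 and 5970 units in posterior endoderm. Its posterior signal was the brighter on both arrays, and the log2 ratio was -1.67 on array A and -1.37 on array B. Fructose-1,6-bisphosphatase, the preceding control step, had 3863 and 1259 units in anterior endoderm, against 6006 and 3073 units in posterior endoderm. Its anterior signal was not well above background, so it was at least 1.95-fold lower there (adjusted p = 0.000106). Phosphoenolpyruvate carboxykinase, which commits oxaloacetate to glucose, had 2223 and 1951 units in anterior endoderm, against 3102 and 3686 units in posterior endoderm. Its log2 ratio was -0.67 ± 0.08 (SE, n = 2, adjusted p = 0.000281), but of its 3 probes 2 were lower and 1 was higher. Pyruvate carboxylase, which feeds oxaloacetate into the pathway, had log2 ratios of -0.42 and -0.30 on the 2 arrays.

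Glycolysis runs in the other direction, and 2 of its 8 names were higher, 1 was lower and 5 were not called. Muscle-type pyruvate kinase was higher, with a log2 ratio of 0.29 ± 0.10 (SE, n = 2, adjusted p = 0.0316). Triose-phosphate isomerase was higher as well, at 0.24 ± 0.07 (SE, n = 2, adjusted p = 0.0213). With loess normalisation run within print blocks neither was called. Pyruvate kinase was then at 0.19 (adjusted p = 0.0857) and triose-phosphate isomerase at 0.06 (adjusted p = 0.423). Phosphofructokinase, the main control point of glycolysis, was lower at -0.40 ± 0.11 (SE, n = 2, adjusted p = 0.0125), with 8 of its 13 probes called lower and none higher. Without array B no glycolysis name passed the test; the pyruvate kinase value then had an adjusted p of 0.127, triose-phosphate isomerase 0.159 and phosphofructokinase 0.096. Without array A, pyruvate kinase had an adjusted p of 0.125. The enzyme 6-phosphofructo-2-kinase, which makes the regulator of phosphofructokinase, lay among the larger differences, with log2 ratios of -0.87 on array A and -0.96 on array B.

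Plasma proteins are made mainly by liver, and 7 of 14 tested names were higher in anterior endoderm, 4 were lower and 3 were not called, with a median log2 ratio of 0.19. Serotransferrin, the iron carrier of blood plasma, had 41890 and 19488 units in anterior endoderm, against 6769 and 4450 units in posterior endoderm. Apolipoprotein E, a carrier of lipids in plasma, had 19851 and 18728 units in anterior endoderm, against 6418 and 6712 units in posterior endoderm. Their anterior signal was the brighter on both arrays, with log2 ratios of 2.35 ± 0.06 (SE, n = 2, adjusted p = 7.38e-07) for serotransferrin and 1.54 ± 0.05 (SE, n = 2, adjusted p = 4.18e-06) for apolipoprotein E. Complement C8 beta, a part of the membrane attack complex, had log2 ratios of 1.25 on array A and 0.56 on array B and was well above background on 1 of the 2 arrays in each region; another probe of that name was called lower. Other complement and clotting genes went the other way. Complement component C9, the pore-forming partner of C8, had 11882 and 4311 units in anterior endoderm, against 18264 and 8378 units in posterior endoderm. Its log2 ratio was -0.90 and -0.90, and its 4 probes were all lower. Plasminogen, the precursor of the clot-dissolving enzyme plasmin, had log2 ratios of -0.56 and -0.39. Coagulation factor XIII B chain, a carrier of the clot-stabilising enzyme, had -0.42 and -0.16. With loess run within print blocks the factor XIII value was -0.07 with an adjusted p of 0.312. Without array A the factor XIII value had an adjusted p of 0.132. Complement C3 was lower as well, with log2 ratios of -0.35 and -0.17 and 5 of its 7 probes lower, and the name transferrin, spotted apart from serotransferrin, was higher at 0.38 and 0.33. Proteinase alpha1 inhibitor III, a name for a plasma protease inhibitor, was lower at -0.93 and -0.72.

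Of 12 names in lipid and ketone metabolism, 5 were higher and 3 were lower in anterior endoderm. The pancreatic lipase related protein, a digestive lipase of the pancreas family, had 4164 and 2287 units in anterior endoderm, against 2413 and 1724 units in posterior endoderm. Its log2 ratio was 0.96 on array A and 0.99 on array B, with signal well above background on 1 of 2 arrays in each region. Bile salt-dependent lipase, another pancreatic enzyme, had log2 ratios of 0.59 and 0.26 but was well above background in neither region, so no fold is given; without array A its adjusted p was 0.113. Heart-type fatty acid-binding protein had 0.60 and 0.20, and without array A its adjusted p was 0.075. The lower names were farnesyl pyrophosphate synthetase, an enzyme of sterol synthesis, at -0.67 ± 0.09 (SE, n = 2, adjusted p = 0.000634), the ketone-using enzyme succinyl-CoA:3-ketoacid-CoA transferase at -0.51 ± 0.08 (SE, n = 2, adjusted p = 0.00137), and a carnitine carrier name at -0.18 ± 0.07 (SE, n = 2, adjusted p = 0.0478). The carnitine value had an adjusted p of 0.295 without array B. Among the larger differences of the whole comparison, phytanoyl-CoA alpha-hydroxylase, a peroxisomal enzyme of branched fatty acid breakdown, had log2 ratios of 0.90 on array A and 1.01 on array B.

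In amino acid and nitrogen metabolism 4 of 12 names were higher and 1 was lower. Glutamine synthetase, which joins ammonia to glutamate, had 9641 and 5297 units in anterior endoderm, against 4632 and 3701 units in posterior endoderm. All 6 of its probes were higher, between 0.43 to 1.34 on the log2 scale. Hepatic arginase, the last enzyme of the urea cycle, was higher at 0.11 and 0.25. Histidine ammonia-lyase, which starts histidine breakdown, was lower at -0.38 ± 0.07 (SE, n = 2, adjusted p = 0.00347). Guanidinoacetate N-methyltransferase, the last enzyme of creatine synthesis, was not in the list but was among the most uniform lower names. Its brightest probe had 59186 and 40196 units in anterior endoderm, against 65535 and 65535 units in posterior endoderm. Its log2 ratio was -0.49 on array A and -0.94 on array B. The posterior dye was saturated on both arrays, so the size of the difference was not fully measured. The 4 probes lay between -1.46 to -0.72.

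The antioxidant list had 3 of 10 names higher and 3 lower. A name cut to "glutathione p" had 7156 and 2504 units in anterior endoderm, against 2650 and 1850 units in posterior endoderm and log2 ratios of 1.49 on array A and 0.85 on array B. A peroxidase was higher at 0.64 ± 0.06 (SE, n = 2, adjusted p = 0.000108). Glutathione transferase omega 1 was lower at -0.46 ± 0.14 (SE, n = 2, adjusted p = 0.0257), and without array B its adjusted p was 0.227. The mitochondrial thioredoxin, a small redox protein of that organelle, had 5 probes that were all lower, its brightest at -0.23 ± 0.07 (SE, n = 2, adjusted p = 0.0271). The brightest probe's adjusted p was 0.0866 without array A and 0.112 without array B. In the citric acid cycle, succinyl-CoA synthetase, which makes succinate, was lower at -1.03 on array A and -0.82 on array B, although 1 of its 4 probes was called higher, while the E1 subunit of oxoglutarate dehydrogenase was higher at 0.64 and 0.50. Oxidative phosphorylation had 4 of 23 names higher, 6 lower and 13 not called. ATP synthase protein 8 was lower at -0.82 on array A and -0.85 on array B, and a chain of NADH-ubiquinone oxidoreductase, the first complex of the respiratory chain, was higher at 0.32 ± 0.07 (SE, n = 2, adjusted p = 0.00457) with a saturated spot on both arrays and 8 of 21 probes higher and 2 lower.

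The early organ regulators were matched by words for genes that mark position and organ fate, among them transcription factors. Of 20 names, 5 were higher in anterior endoderm, 6 were lower and 9 were not called. The lower ones included the posterior protein, with 12366 and 3275 units in anterior endoderm, against 29194 and 7683 units in posterior endoderm. They also included HOX-A7, HOX-B9 and Xcad-1, a caudal homeobox gene of the posterior body, with log2 ratios of -0.40 and -0.46 for HOX-A7, -0.26 and -0.33 for HOX-B9 and -0.39 and -0.35 for Xcad-1. HOX-B9 was well above background in neither region, so no fold is given. The higher ones included HOXB3 at 0.36 and 0.38, HOXD4 at 0.14 and 0.19 and the name HOX4E at 0.32 and 0.61. The Hox genes with low numbers are expressed nearer the head in vertebrates and those with high numbers nearer the tail. The name HOX4E is in an older style whose digit is not such a number, so it is not placed on this scale. HOX-A10, HOX-A11 and HOX-B6 were not called, with log2 ratios of 0.13 and -0.05 for HOX-A10, 0.47 and -0.01 for HOX-A11 and -0.18 and -0.25 for HOX-B6. XGATA-6B, a GATA factor of gut and heart, was higher on all 4 of its probes, between 0.38 to 0.86. XGATA-2, a GATA factor of blood and nervous system, was lower on all 3 of its probes, the brightest at -0.56 and -0.48. Xlhbox-8, the frog pancreas and duodenum homeobox gene, was not called, with log2 ratios of 0.08 and -0.03. Its signal was well above background on 1 array in anterior endoderm and on neither array in posterior endoderm. The missing call therefore does not measure equal levels. The call of HOX4E rested on array B, since its adjusted p was 0.0786 without it, and XGATA-6B had 0.0684 for its brightest probe without array B.

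A plate of known Xenopus genes was spotted in duplicate, and 36 of its 53 names were tested. Of the 16 names with both spots tested, 3 had both spots higher, 3 had both lower and none had opposite calls, and the 2 spots of a name differed by a median of 0.187 on the log2 scale. The head gene otx2, a homeobox gene of anterior tissue, had 8081 and 4702 units in anterior endoderm, against 4291 and 3200 units in posterior endoderm. Its log2 ratio was 0.83 on array A and 0.80 on array B, brighter in anterior endoderm on both arrays. The organizer gene Xsia was higher at 0.48 and 0.60, the hindbrain zinc finger gene krox20 at 0.43 and 0.53 and the POU factor Xoct25 at 0.47 and 0.37. Xvent1 and Xvent-2, homeobox genes that act downstream of BMP on the ventral side, were lower at -0.70 and -1.03 for Xvent1 and -0.66 and -0.53 for Xvent-2. Xcer, the frog cerberus gene, a secreted inhibitor made by anterior endoderm at gastrula stages, had 717 and 259 units in anterior endoderm, against 1467 and 908 units in posterior endoderm. The anterior signal of Xcer was well above background on 1 of the 2 arrays, and its log2 ratio was -0.88 and -0.84. Cardiac actin was lower at -0.60 and -0.54, En-2, a midbrain homeobox gene, at -0.39 and -0.32 (its other spot, at 0.002 and -0.07, was not called) and Pax-6, a homeobox gene of eye and pancreas, at -0.26 and -0.38. The called spots of En-2 and Pax-6 were well above background on 1 of the 2 arrays in each region. The plate's list leaves out follistatin, whose brightest probe lay off the plate. It had 10 of 35 names higher and 14 lower, with a median of -0.08, or 0.03 with loess run within print blocks. When both dyes had to be well above background on both arrays, the balance turned. Then 9 of 20 names were higher and 3 lower, with a median of 0.15.

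In Wnt signalling 4 of 8 names were higher and none was lower. Secreted frizzled-related protein and a name cut to "frizzled-re", both of a family that binds Wnt outside the cell, had log2 ratios of 0.63 on array A and 0.56 on array B and 0.58 on array A and 0.26 on array B. Tcf-3, the DNA-binding partner of beta-catenin, had 0.53 on array A and 0.45 on array B, and both of its spots were called higher. Axin 2, a target and brake of the pathway, had 0.32 and 0.36. Wnt-11, a ligand, was not called, with 0.13 and -0.30.

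In TGF-beta, BMP and Nodal signalling 3 of 14 names were higher and 4 were lower, and of all 30 probes 4 were higher and 12 lower. Among ligands, BMP-4 was higher at 0.31 on array A and 0.40 on array B through its named probe, but was 0.08 with an adjusted p of 0.205 when loess was run within print blocks. Of the plate's 2 spots of Xbmp-4, the brighter was called lower at -0.17 and -0.22 and the other was not called, at -0.14 and -0.03. BMP-7, another ligand, was lower at -0.27 on array A and -0.40 on array B, with its other spot not called, at -0.06 and -0.14. Among receptors, an activin receptor name was higher at 0.39 and 0.51 and the activin receptor STK8 was lower at -0.66 and -0.68. Follistatin, a secreted inhibitor of activin and BMP, had 4359 and 2336 units in anterior endoderm, against 5794 and 4943 units in posterior endoderm. All 4 of its probes were lower, between -1.31 to -0.42.

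In FGF, retinoid and hedgehog signalling 4 of 10 names were higher and none was lower. An FGF receptor name had 7662 and 1861 units in anterior endoderm, against 3842 and 1646 units in posterior endoderm, and its log2 ratio was 0.98 on array A and 0.77 on array B, with signal well above background on 1 of 2 arrays in each region. Of its 4 probes, 3 were higher and 1 was lower. Another FGF receptor name, cut to "FGF recepto", was higher at 0.77 and 0.70 on all 3 probes. A name cut to "fibroblast gro", which the word match left out of this list, was higher at 0.81 and 0.85. The retinoic acid-induced protein was higher at 0.48 and 0.45 and the retinoid-processing protein at 0.25 and 0.28, with 2 of its 3 probes higher and 1 lower. Retinoic acid receptor gamma was not called, at -0.17 and -0.07.

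Kinases, phosphatases and small GTPases were split evenly. SGK, a kinase that regulates ion transport, was the highest, with 33692 and 10736 units in anterior endoderm, against 16678 and 6742 units in posterior endoderm. It had 8 of 10 probes higher and none lower. Rab-10 and Rab-13, small GTPases of vesicle traffic, were higher at 0.37 and 0.60 for Rab-10 and 0.49 and 0.46 for Rab-13, but of 8 Rab-10 probes 1 was higher and 1 lower. Protein phosphatase 2C alpha was at least 1.98-fold lower, since its anterior signal was not well above background. A RAS GTPase-activating-like protein was lower at -0.97 and -0.92, ADP-ribosylation factor 6, a small GTPase of the cell surface, at -0.94 and -0.89 and a calcineurin regulatory chain at -0.92 and -0.89.

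Among 61 transcription factor names, zinc finger protein ZNF298 of the PR-domain type had 8096 and 4522 units in anterior endoderm, against 4379 and 3073 units in posterior endoderm. Its log2 ratio was 0.83 and 0.84 on the 2 arrays. COUP transcription factor 2, a nuclear receptor, was higher at 0.92 and 0.61. Zic4, a zinc finger gene of neural tissue, had 2042 and 1226 units in anterior endoderm, against 1574 and 1528 units in posterior endoderm before background correction. Its posterior signal was not well above background, and on the normalised scale it was at least 1.67-fold higher, with log2 ratios of 0.74 and 0.74. A name cut to "hepatocyte nuclear fact", of the transcription factors first described in liver, was outside the lists. It had 21013 and 17574 units in anterior endoderm, against 9384 and 9891 units in posterior endoderm and a log2 ratio of 0.89 ± 0.12 (SE, n = 2, adjusted p = 0.000554). The cut name does not say which hepatocyte nuclear factor it is. ZNF131 was lower at -0.73 and -1.11. SOX-2, a factor of neural and foregut progenitors, was lower at -0.71 and -0.51 through its brightest probe, but 2 of its 4 probes were called higher and 1 lower.

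In cell cycle and DNA replication, 14 of 28 names were higher and 3 lower, with a median of 0.18. Over all 69 probes 25 were higher and 15 lower, with a median of 0.02. The MCM/P1 protein, part of the replicative helicase, had 28194 and 7925 units in anterior endoderm, against 15993 and 5496 units in posterior endoderm, with the anterior signal the brighter on both arrays. A mitotic checkpoint name was higher at 0.50 and 0.71 and a cdc2-related kinase at 0.60 and 0.55. Cyclin E3, E1, F and A2 were higher at log2 ratios of 0.42 for E3, 0.20 for E1, 0.40 for F and 0.24 for A2, while cyclin B1 was lower at -0.39 ± 0.06 (SE, n = 2, adjusted p = 0.00141). Cyclin A2 had 1 probe higher and 2 lower. In histones and chromatin, 10 of 20 names were higher and 2 lower. A nonhistone chromosomal HMG protein had 65535 and 25650 units in anterior endoderm, against 29877 and 13174 units in posterior endoderm and a saturated spot on 1 array, and of its 7 probes 5 were higher and 1 lower. High mobility group protein 1 was higher at 0.66 and 0.66, a SWI/SNF related remodelling factor at 0.52 and 0.59 and histone H3.3 at 0.47 and 0.42, with 7 of 11 probes higher and none lower. Histone H2A.1 was lower at -0.83 and -0.63.

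The proteasome breaks down proteins marked with ubiquitin, and 17 of 32 names of this list were higher and 5 lower, with a median of 0.21. Without array A 13 names were higher and without array B 12. Proteasome component C2 had 30198 and 21574 units in anterior endoderm, against 15801 and 13388 units in posterior endoderm, and its log2 ratio was 0.64 ± 0.10 (SE, n = 2, adjusted p = 0.00118). The ubiquitin-conjugating enzyme E2 G ran against its list. It had 2629 and 1395 units in anterior endoderm, against 8533 and 5372 units in posterior endoderm and a log2 ratio of -1.89 ± 0.06 (SE, n = 2, adjusted p = 1.72e-06), but of its 3 probes 1 was lower, 1 was higher and 1 was not called. Splicing and RNA-binding names were 8 of 23 higher and 4 lower, led by the U2 snRNP protein SF3b at 0.87 and 0.64, with a saturated spot on both arrays, and by a Myc-regulated DEAD box helicase at 0.54 and 0.64. U2AF, a factor that reads the splice acceptor, was lower at -0.52 and -0.77.

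Of 48 cytosolic ribosomal protein names, 13 were higher, 7 were lower and 28 were not called, with a median of 0.06. S23, L35A and S20 were highest at 0.58, 0.52 and 0.50, while S1 and L23 were lowest at -0.68 and -0.66. S23, L35A and S20 each had a saturated spot on 1 array, and S20 and S1 each had 1 probe called the other way. When saturated spots were left out, 5 of 33 names were higher and 8 lower, with a median of -0.06. Of 15 translation factor and tRNA synthetase names, none was higher and 8 were lower, with a median of -0.18. Initiation factor IF2alpha, which brings the first tRNA to the ribosome, had 3892 and 4157 units in anterior endoderm, against 6223 and 6630 units in posterior endoderm. Elongation factor 1-delta was lower at -0.58 and -0.66 and tyrosyl-tRNA synthetase at -0.33 and -0.45. A bifunctional aminoacyl-tRNA synthetase was lower at -0.71 on array A and -0.19 on array B, and without array A its adjusted p was 0.0516. With loess run within print blocks, 2 translation names were higher and 7 lower.

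Chaperones fold other proteins, and 3 of 18 names were higher and 8 lower, with a median of -0.08. Calnexin, a folding factor of the endoplasmic reticulum, had 33686 and 12724 units in anterior endoderm, against 41039 and 18698 units in posterior endoderm, and 8 of its 9 probes were lower and none higher. The zeta subunit of the cytosolic chaperonin TCP-1 was lower on all 4 probes, the brightest at -0.57 on array A and -0.91 on array B. Protein disulfide-isomerase, which forms disulfide bonds, had -0.60 on array A and -0.05 on array B, and without array A its adjusted p was 0.568. The 47 kDa heat shock protein, a chaperone of collagen, was higher at 0.66 on array A and 0.75 on array B. The number of lower chaperones was 3 without array A and 5 without array B. In the secretory pathway 8 of 23 names were higher and 3 lower, with a median of 0.11, or 3 higher and 2 lower with a median of -0.03 by the median over a name's probes. A protein transport protein of the Sec family was higher at 0.39 and 0.51, and the lower names were 2 coatomer subunits and a clathrin coat name, at -0.32, -0.28 and -0.28. Without array B none of the 3 was called and 4 names were higher.

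Ion pumps and solute carriers had 6 of 13 names higher and 5 lower. The Na+/K+-exchanging ATPase, the pump that keeps sodium out of the cell, had 63478 and 36686 units in anterior endoderm, against 17335 and 12360 units in posterior endoderm. A spot was saturated on both arrays, and the log2 ratio was 1.58 on array A and 1.51 on array B. Chloride intracellular channel protein was higher at 0.58 and 0.41. Aquaporin-3, a water and glycerol channel, was lower at -1.14 on array A and -0.42 on array B, and the 2 arrays differed by more than the usual spread. A low-affinity glucose transporter was lower at -0.25 and -0.46, and its other probe was called higher. Of 5 carbonic anhydrases, which interconvert carbon dioxide and bicarbonate, 2 were lower and none was higher. In the digestive and brush border list, villin, which bundles actin in microvilli, was lower at -0.20 on array A and -0.29 on array B. That call was lost without array B. The list's alkaline phosphatase, whose cut name reads "tissue-nons" for the tissue-nonspecific form, was higher on all 4 probes, between 0.22 and 0.74. It was matched by words and is not read as a brush border gene. The call of its brightest probe was lost without array A. In the lysosome list 1 of 6 names was higher and 3 were lower, among them beta-glucosidase at -0.44 and -0.50.

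Keratins are the intermediate filaments of epithelia, and plakins join them to cell junctions. Of 14 epidermis and keratin names, 4 were higher and 6 were lower, with a median of -0.06, or 0.03 with median centring in place of loess, but over the 50 probes of the list 5 were higher and 33 lower, with a probe median of -0.42. Epiplakin was lower on all 5 probes, between -0.995 to -0.42, and envoplakin on 5 of 6. Desmoyokin, a large protein also called AHNAK, was lower on 13 of 17 probes, although its brightest probe was not called, at -0.04 and -0.03. The 47 kDa type I keratin had 52938 and 24317 units in anterior endoderm, against 65535 and 53795 units in posterior endoderm, with saturated spots, and a log2 ratio of -0.65 on array A and -1.33 on array B. Type II keratin 8, a keratin of simple epithelia such as gut, was lower at -0.40 on array A and -0.88 on array B, while a keratin of isotype 18, its usual partner, was higher at 0.22 on array A and 0.55 on array B; without array B that partner had an adjusted p of 0.125. Junction plakoglobin, a catenin of desmosomes, was higher at 0.36 and 0.33. Uroplakin III was lower at -0.72 and -0.52 and annexin II type 1, a calcium-dependent membrane binder, at -1.23 and -0.99.

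The actin list had 5 of 18 names higher and 6 lower. Names of capping protein alpha subunits went opposite ways. Actin capping protein CapZ alpha was higher at 0.43 and 0.47, and the alpha-2 subunit of F-actin capping protein was lower at -0.64 and -0.75. Alpha-actinin was lower at -0.61 and -0.53. Alpha-2 tubulin, a subunit of microtubules, had 7984 and 1957 units in anterior endoderm, against 17222 and 5264 units in posterior endoderm. All 6 of its probes were lower, between -1.66 to -0.60, and beta-tubulin was higher at 0.10 on array A and 0.51 on array B, with an adjusted p of 0.313 without array B. Hyaluronan synthase 1, which makes the matrix sugar hyaluronan, was the lowest name of the ranked set, with 7403 and 6148 units in anterior endoderm, against 13441 and 11271 units in posterior endoderm and a log2 ratio of -1.10 on array A and -0.85 on array B. In the matrix list 2 of 16 names were higher and 5 lower, with a median of -0.01, or 0.06 without array A. A laminin alpha chain, a basement membrane protein, was at least 1.80-fold lower, its anterior signal not being well above background, and collagen alpha 1(II) was lower at -0.57 and -0.76. Chordin, a secreted BMP inhibitor of the organizer and notochord, was higher at 0.67 and 0.52, with 2 of its 3 probes higher and 1 lower, and the proteoglycan link protein of cartilage at 0.69 and 0.56.

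Lists of markers of other cell types were read against the 56.4% of all names called. Of 21 neural names, 12 were higher and 4 lower, with a median of 0.27. With loess run within print blocks 9 were higher and 3 lower, with a median of 0.16. With spot means in place of spot medians 10 were higher and 3 lower, also with a median of 0.16. When both dyes had to be well above background on both arrays, 6 of 9 names were higher and 2 lower, with a median of 0.27. The words matched for this list include those for otx2, Zic4 and SOX-2, which are also described above. On array A the list made up 0.651% of the summed raw signal of all names in anterior endoderm and 0.618% in posterior endoderm. On array B these shares were 0.491% in anterior and 0.506% in posterior endoderm, so the summed signal did not differ one way on both arrays. A neuronal septin was at least 1.91-fold higher, with posterior signal not well above background, a neurofilament name was higher at 0.66 and 0.48, and synaptotagmin I, a calcium sensor of synaptic vesicles, was lower at -0.35 and -0.56. In 2 of the neural names the anterior signal and in 4 the posterior signal was not well above background on either array. Of 17 skeletal muscle names, 7 were higher and 3 lower. The higher ones include muscle-type pyruvate kinase, which was matched by the word muscle and is also counted in glycolysis. It is part of the muscle signal shares below as well. Fast troponin C beta was higher at 0.79 and 0.57, with 2 of its 3 probes higher and 1 lower, and MyoD1, the muscle regulator, at 0.49 and 0.40, while a myosin regulatory light chain was lower at -0.53 and -0.44. Without array A 4 muscle names were higher. The muscle list made up 0.953% of the summed signal in anterior and 0.968% in posterior endoderm on array A, and 0.809% and 0.852% on array B. Of 5 blood names, 1 was lower, the 55 kDa erythrocyte membrane protein, with an adjusted p of 0.144 without array A. The hatching gland name UVS.2 was lower at -0.20 on array A and -0.20 on array B, a call lost when either array was left out. Over the 8 tested probes of the hatching gland and cement gland list, 3 were higher and 3 lower. The epidermis list made up 1.53% of the summed signal in anterior and 1.76% in posterior endoderm on array A, and 1.67% and 2.05% on array B. The part of these cell types in the results above was not tested.

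Past the 10 largest differences in each direction, the names ranked 11 to 30 lay between 0.79 and 1.10 on the higher side and between -0.97 and -0.83 on the lower side. On the higher side, a thrombospondin name, of a family of matrix proteins, had 6520 and 4158 units in anterior endoderm, against 3081 and 2653 units in posterior endoderm and a log2 ratio of 1.10 on array A and 0.94 on array B. A name cut to "middle molecu" had 1.14 on array A and 1.06 on array B, a UDP-glucuronosyl name 0.88 and 0.80 and a kinesin-like motor 0.98 and 0.77. A MARCKS-related protein, of a family that links membrane and actin, was higher at 0.83 and 0.91, with 3 of its 5 probes higher and 2 lower. A circadian name was higher at 0.77 and 0.81, and its other probe was called lower. Calpastatin, the inhibitor of the protease calpain, was higher at 0.48 on array A and 1.17 on array B with a saturated spot, and of its 3 probes 1 was higher and 1 lower. Calpain 1, the protease itself, was lower on all 4 probes, between -0.90 to -0.39. On the lower side, glucosamine-fructose-6-phosphate aminotransferase, the entry step to amino sugars, had -0.95 and -0.85, cystatin B, an inhibitor of cathepsins, had -0.85 and -0.87 and SCO-spondin, a secreted protein of the floor plate and subcommissural organ, had -0.72 and -1.08 with saturated spots. The NEM sensitive fusion protein, which recycles membrane fusion complexes, had -1.06 and -0.79, and a name cut to "pituitary h" was at least 1.86-fold lower. In the plot of ranked names, complement C8 beta and calpastatin are the widest apart on the higher side.

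**Figure D3:**
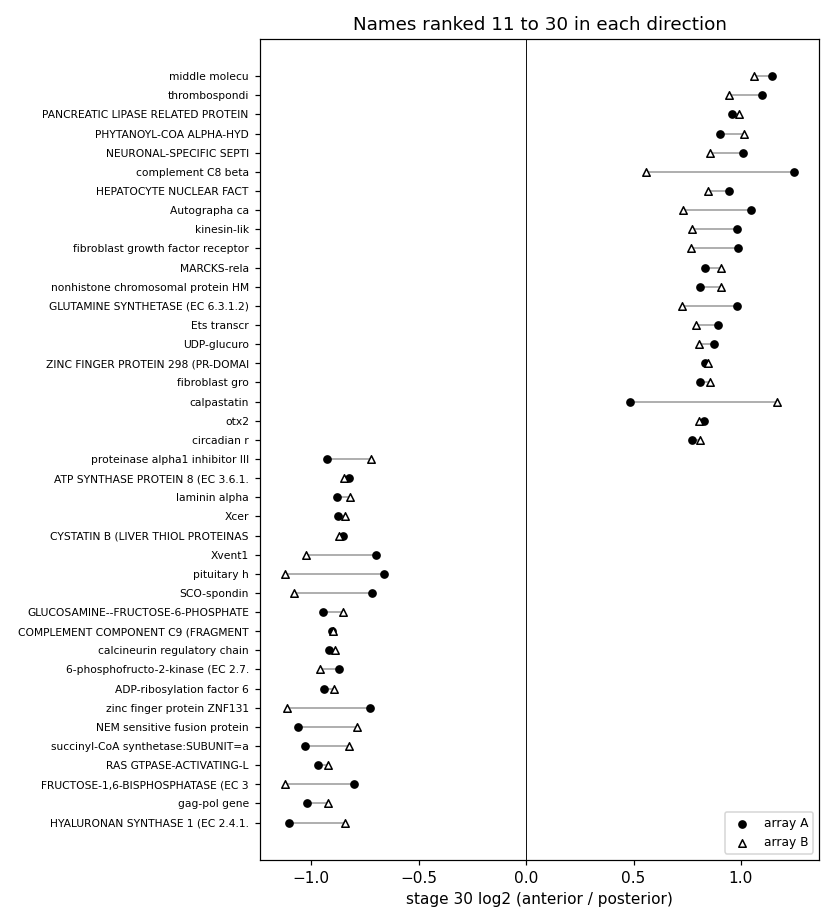
Log2 ratio of anterior over posterior endoderm at stage 30 on array A (filled circles) and array B (open triangles) for the names ranked 11 to 30 in each direction by size. Every plotted name has the same sign on both arrays, as the rule for naming requires.

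Many names were read by more than 1 probe. Of 988 names with several tested probes, 87 had all probes called higher, 71 had all called lower, 207 had probes called in opposite directions and 148 had none called. The median range between the probes of a name was 0.404 on the log2 scale. Of 297 names with 4 or more probes, 14 had all called higher and 13 all called lower. XLS13A, a Xenopus gene whose role is not given by the annotation, had 8 probes between 0.64 to 1.69, the brightest with saturated spots on both arrays. XMeis1-2, a homeobox cofactor of Hox proteins, had 4 probes between 0.23 to 0.67. An Ets transcription factor name had 5 probes between 0.45 to 0.84. The TG-interacting factor, a homeobox repressor, had 4 between 0.27 to 0.96 and MPP10, a ribosome assembly protein of the nucleolus, had 4 between 0.43 to 0.70. On the lower side, a gag-pol name, the core and polymerase genes of retroviruses, had 8 probes between -1.76 to -0.69, and glucose-6-phosphatase had 5 between -1.52 to -0.23. A name with an opposite call among its probes may hold several genes, and its probes are not replicates of 1 transcript.

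**Figure D4:**
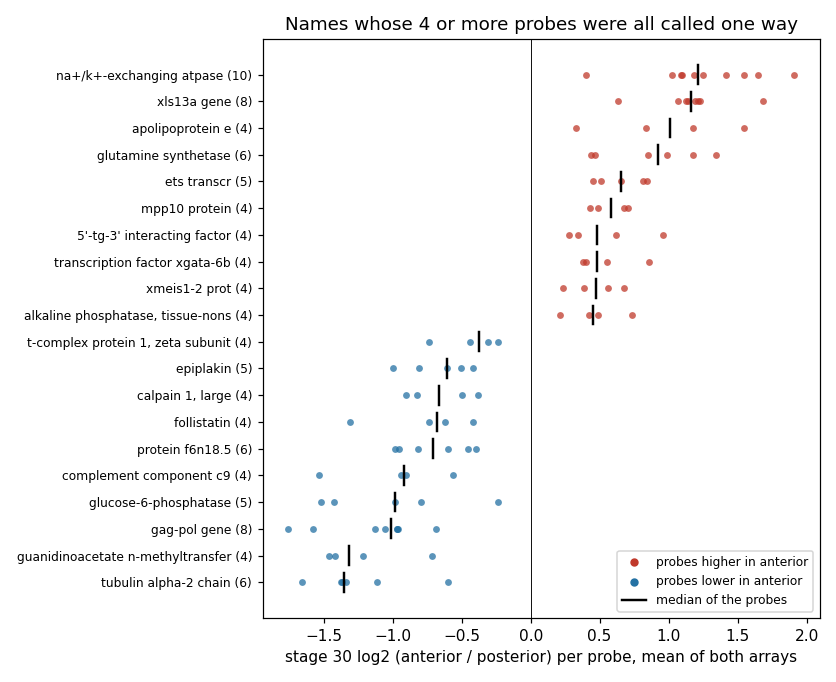
Stage 30 log2 ratio of each probe (points, mean of both arrays) for the names with 4 or more tested probes that were all called one way, 10 names in each direction, with the number of probes in brackets and black bars at the median. Probe medians of the higher names run to 1.22 and those of the lower names to -1.35.

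The stage 30 ratio was then set against the mean ratio of stages 39 and 46, whose arrays were hybridised in the same way. The difference passed the test for 1111 of 1935 names with a value at every stage (57.4%) and for 7797 of 13725 probes (56.8%). Across names the stage 30 ratio correlated with the stage 39 ratio at r = 0.119 and with the stage 46 ratio at r = 0.0772, a description over names that share a platform. Among 195 named genes, 188 had a value at every stage. Of these, 38 were called with the same sign at all 3 stages and 20 were called with the opposite sign at both later stages. The named genes were picked for called stage 30 ratios, and these patterns were not counted over all names. Both counts therefore describe the named genes only. Apolipoprotein E had log2 ratios of 1.54, -1.24 and -1.69 at stages 30, 39 and 46, so it was higher in anterior endoderm at stage 30 and lower at both later stages. The Na+/K+-exchanging ATPase had 1.55, 0.03 and -1.04. Otx2 had 0.81, -0.78 and -0.11, and the pancreatic lipase related protein had 0.97, -0.61 and -0.19. In the other direction, succinyl-CoA:3-ketoacid-CoA transferase had -0.51, 1.06 and 2.20, and the posterior protein had -1.34, 0.12 and -0.53. Other names held their sign. Glucose-6-phosphatase had -1.52, -2.38 and -0.77, 6-phosphofructo-2-kinase had -0.92, -1.14 and -1.35, tubulin alpha-2 had -1.34, -1.85 and -1.48, and serotransferrin had 2.35, 0.47 and 0.84.

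**Figure D5:**
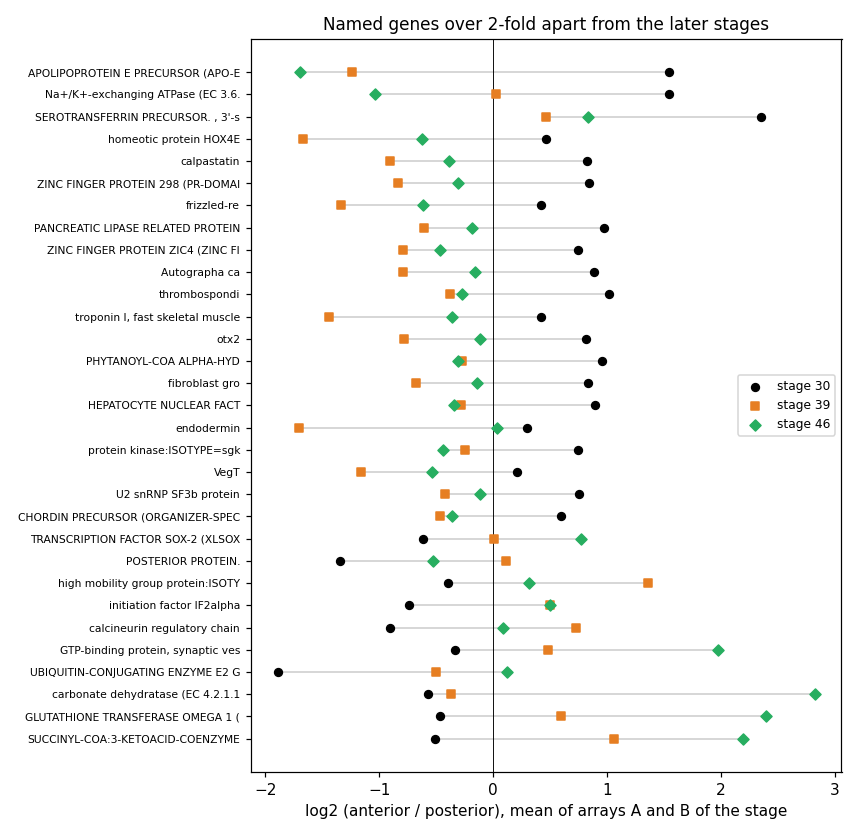
Log2 ratio of anterior over posterior endoderm at stage 30 (circles), stage 39 (squares) and stage 46 (diamonds), each the mean of 2 arrays, for the 31 named genes whose stage 30 ratio differed over 2-fold from the mean of the later stages. Apolipoprotein E is at the top, with a difference of 3.01, and succinyl-CoA:3-ketoacid-CoA transferase is at the bottom, with -2.14.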

How the data were processed

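Labelled cDNA of both stage 30 regions was hybridised together on each of 2 spotted arrays, per the labels. The deposited scanner files hold a linear intensity per spot and dye, neither background-subtracted nor normalised, with the scanner gain set per slide, per the labels' protocols. The files also give, as deposited, the percent of saturated pixels per spot. The authors' deposited values hold a single ratio per clone and stage, made with GeneData software per the labels, which was used only as an alternative. Its ratio was compared on the log2 scale, and the score that marks spots not found, as deposited, was used to leave spots out. Text was loaded through data.table (version 1.17.8), and ratios were computed in R 4.3.3 with limma 3.58.1. Background was corrected by normexp with an offset of 50, and loess (span 0.3) normalised each array, with weight 0 for the 239 controls and for missed spots. The limma model held all 6 arrays, 1 coefficient for every stage, and moderated variances. A probe was tested if it had a value on both stage 30 arrays and lay over 2 background SDs above background in at least 1 dye on at least 2 of the 6 arrays. P-values were adjusted by Benjamini-Hochberg over 14103 probes, with a threshold of 0.05. Folds given as "at least" set the brighter region against a dimmer one that was not well above background on both arrays, taking the higher of the dim probe's own signal and the lowest signal measured above background, on background-corrected, normalised values. The probe's own signal was the higher for the genes named so, and the bound then equals the normalised fold. That fold is the mean over both arrays, so a single array can lie below it. The precision is limited by 2 arrays.

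Names came from the annotation column. Gene lists were matched by words in these names, and chance word matches were taken out after the names, but not their values, were seen. The members and lists were chosen with earlier results of these data known. Genes are named by rule: the 3 largest called in each direction per list, ranks 11 to 30 over all names, and names with 4 or more probes all called one way. Some further list members, and names set beside them, were chosen after their values were seen. The fit was also run on simulated ratios with planted changes, and no result here rests on that run. No sequence was used here.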

Additional observations from a re-analysis of the deposited data

Results flagged for a closer look

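The anterior to posterior ratio differed between stage 30 and the mean of stages 39 and 46 for 7797 of 13725 probes, by limma's test of the difference itself. For 31 named genes this difference passed the threshold and exceeded 2-fold, and these are given here as log2 differences, stage 30 minus the later mean. Named genes were picked for called stage 30 ratios, so that count describes them only. Positive values mean that the ratio was more anterior at stage 30. Each stage had 2 arrays and its own slides, so stage and slide cannot be told apart.

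Among genes of secretion and metabolism, the difference was 3.01 for apolipoprotein E, 1.70 for serotransferrin, 1.37 for the pancreatic lipase related protein and 1.25 for phytanoyl-CoA alpha-hydroxylase. It was -2.14 for succinyl-CoA:3-ketoacid-CoA transferase, -1.96 for glutathione transferase omega 1 and -1.80 for carbonate dehydratase. At stage 46 the log2 ratios of these last genes were 2.20, 2.40 and 2.82, higher in anterior endoderm, whereas at stage 30 they were -0.51, -0.46 and -0.57.

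Among regulators and signalling genes, the difference was 1.61 for HOX4E, 1.41 for ZNF298, 1.39 for the name cut to "frizzled-re", 1.37 for Zic4, 1.26 for otx2, 1.24 for "fibroblast gro", 1.21 for "hepatocyte nuclear fact", 1.09 for SGK, 1.06 for VegT and 1.01 for chordin, 1 of whose 3 probes was called lower at stage 30. It was -1.003 for SOX-2, -1.14 for the posterior protein and -1.31 for the calcineurin regulatory chain.

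Among the remaining genes, the difference was 2.05 for the Na+/K+-exchanging ATPase, 1.47 for calpastatin, 1.34 for the thrombospondin name, 1.32 for fast skeletal troponin I, 1.13 for endodermin, 1.02 for the U2 snRNP protein SF3b and 1.36 for a clone whose annotation is cut short and names no gene (XL071d19). The Na+/K+-exchanging ATPase and SF3b had saturated spots on both stage 30 arrays and calpastatin on 1. It was -1.24 for an isotype of high mobility group protein, -1.24 for IF2alpha, -1.57 for the synaptic vesicle GTP-binding protein and -1.70 for ubiquitin-conjugating enzyme E2 G. The probes given here for endodermin and the high mobility group isotype were well above background in neither region on either stage 30 array. The differences of these probes therefore give no measured size.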

How the results depend on the processing

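No named gene changed direction under an alternative that gave it a value. Naming required the same sign on both arrays, so leaving out an array could not reverse a named gene. The medians of 22 of 38 gene lists changed sign under at least 1 alternative. The 7911 called probes were 4204 when both dyes had to be well above background on both arrays, which tests fewer probes, and 2211 against a minimum change of 1.2-fold. The 179 probes over 2-fold were 116 without background subtraction, 290 with plain subtraction and 100 with both dyes bright. The 1117 called names were 321 against the minimum change. The 7797 probes that differed from the later stages were 4248 with both dyes bright and 3382 against the minimum change. The causes were not tested. Leaving out array A or array B, with the lone array assumed to vary like the other stages, gave 6778 to 6792 called probes, 221 to 235 over 2-fold, 958 to 990 names and 7320 to 7383 probes differing from the later stages. The other alternatives (median centring, loess within print blocks, Aquantile scaling, no filter, no saturated spots, spot means, the stage 30 arrays alone and the median over a name's probes) kept each of these counts within 1.5 times its value. With loess within print blocks 6289 of the 7911 probes were called the same way. Of 195 named genes, 99 had a value under every tested alternative, and 80 of these were called under each of them other than the minimum change; under the minimum change 121 of the 195 were called. With both dyes bright 117 named genes had a value, and without saturated spots 175. The most were lost without array B, 24, without array A, 18, and with loess within blocks, 16. The authors' deposited table gave all 5496 called probes with a value the same direction. Of the 9579 tested probes with a deposited value, 187 had a deposited ratio over 2-fold. That count used no test, unlike the 179. The deposited ratios came from the same arrays, so the shared direction is no separate evidence. The most list medians changed sign with both dyes bright, 11, among them early organ regulators (0.03, then -0.29) and yolk and maternal genes (0.15, then -0.24). Each log2 ratio pairs both regions on the same array, and the tests used these ratios. No pairing of arrays between stages was possible, because the labels give no replicate numbers that the stages share. Signal limits the dim spots: array B was well above background in 39.1% of anterior and 43.4% of posterior spots.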

Other observations

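Clones without an informative name were tested in the same fit. Of 5044 tested clones with no database match, 1463 were higher in anterior endoderm and 1394 were lower, 56.6% in all, with a median size of 0.222 on the log2 scale.

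The share of called probes varied little with brightness, between 53.3% in the dimmest of 4 equal brightness classes and 58.6% in the brightest. Position on the slide varied more. The median log2 ratio of the 32 print blocks ran between -0.18 and 0.27, and these block medians correlated between arrays A and B with r = 0.810, a description over blocks that hold different clones. Whether a block's clones or its place on the slide move with its median was not tested.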
